A study of Mus musculus with 18 samples.

Results

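The regions described here are the stretches of the mouse genome where CTCF was called in both Satb1 KO libraries but not in the WT library, and where cohesin was not called as gained alongside it. They were selected on the measured peaks. The 3 CTCF peak lists were merged on chromosomes 1 to 19 wherever peaks overlapped by at least 1 bp, and a region was kept if it held a peak of both Satb1 KO lists and none of the WT list. Regions that overlapped a merged SMC1A region held by both Satb1 KO SMC1A lists and by neither WT SMC1A list were left out. This gave 1281 regions of 62309 merged CTCF regions, which is 2.06% of them. Of the 18394 regions found in both Satb1 KO lists, 16902 were also in the WT list and 1492 were not. Of those 1492 CTCF gains, 211 (14.1%) carried a cohesin gain and 1281 did not. SMC1A itself was called as gained in 2187 of 34329 merged SMC1A regions, or 6.37%.

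The study profiled DP thymocytes, the CD4+ CD8+ double-positive stage of T cell development, sorted from the thymus of mice, by CUT&RUN, in which an antibody directs a nuclease to cut DNA next to the bound protein. The Satb1 KO group came from animals with a tamoxifen-induced deletion of Satb1, and the WT group was likewise labelled as treated with tamoxifen. The lists used were 2 for CTCF and 2 for SMC1A from Satb1 KO cells, against 1 for CTCF and 2 for SMC1A from WT cells. The labels do not name the Cre line, the ages or whether replicates came from separate animals, so any spread given here is that between libraries and may be technical. CTCF peaks near Satb1 do not report whether the gene was deleted, and none of the 32 merged CTCF regions within 20 kb of Satb1 belonged to the gained set.

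CTCF is a zinc-finger protein that binds a long, well-defined DNA motif and halts loop extrusion by cohesin, the ring complex of which SMC1A is a core subunit. Sites where both sit together often anchor chromatin loops and the borders of topological domains. SATB1 is a chromatin organiser abundant in thymocytes, which binds AT-rich DNA and is needed for normal T cell development. DP thymocytes also rearrange the T cell receptor alpha locus, where CTCF and cohesin are known to shape contacts between gene segments.

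The deposited lists differ in size and in depth, which bears on every count of gained regions. The autosomal lists hold 54222 and 22351 CTCF peaks in Satb1 KO replicates 1 and 2, against 38222 in the WT library. For SMC1A they hold 27459 and 20172 peaks in Satb1 KO, against 19466 and 20152 in WT. As a proxy for depth, local backgrounds were solved from the deposited values of 1500 peaks sampled across each list. Their 1st percentile was 1.82 and 3.28 reads in the Satb1 KO CTCF libraries and 1.02 in the WT CTCF library. With a single WT list, absence from it is absence from 1 library, and its lower depth was not tested as a source of gained regions.

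Promoter sequence is the only sequence of these regions that could be read here, and 38 of the 1281 regions overlapped a RefSeq promoter window of 250 bases before to 50 bases after a start, covering 44 windows of 39 genes. Shown are 4 windows that hold both Satb1 KO CTCF summits, taken in order of peak strength from the 6 strongest such regions. Sequences are from RefSeq (GRCm38.p6), in the gene's own direction, and capitals mark the stretch between the summits of the 2 Satb1 KO libraries with 10 bases more on each side. Gm30281 is a predicted gene inside the body of Runx1 (chr16:92761959-92762258, plus strand), Gm14410 lies at chr2:177206447-177206746 (minus strand), Rnf135, a ubiquitin ligase gene, at chr11:80183619-80183918 (plus strand), and Dpf3, which encodes a subunit of BAF chromatin remodelling complexes, at chr12:83487687-83487986 (minus strand).
Gm30281: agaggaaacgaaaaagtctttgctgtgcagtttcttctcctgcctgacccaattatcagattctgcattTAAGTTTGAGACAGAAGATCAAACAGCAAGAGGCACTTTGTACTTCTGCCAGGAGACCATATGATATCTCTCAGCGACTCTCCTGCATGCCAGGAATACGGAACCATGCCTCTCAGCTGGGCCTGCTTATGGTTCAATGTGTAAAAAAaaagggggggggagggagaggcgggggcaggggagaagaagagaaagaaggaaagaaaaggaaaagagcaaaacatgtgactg
Gm14410: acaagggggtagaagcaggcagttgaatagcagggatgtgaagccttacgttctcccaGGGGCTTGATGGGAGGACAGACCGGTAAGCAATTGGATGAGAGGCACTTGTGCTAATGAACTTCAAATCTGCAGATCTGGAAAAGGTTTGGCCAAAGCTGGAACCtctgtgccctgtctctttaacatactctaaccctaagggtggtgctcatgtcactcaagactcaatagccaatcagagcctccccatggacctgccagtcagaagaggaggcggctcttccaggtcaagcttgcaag
Rnf135: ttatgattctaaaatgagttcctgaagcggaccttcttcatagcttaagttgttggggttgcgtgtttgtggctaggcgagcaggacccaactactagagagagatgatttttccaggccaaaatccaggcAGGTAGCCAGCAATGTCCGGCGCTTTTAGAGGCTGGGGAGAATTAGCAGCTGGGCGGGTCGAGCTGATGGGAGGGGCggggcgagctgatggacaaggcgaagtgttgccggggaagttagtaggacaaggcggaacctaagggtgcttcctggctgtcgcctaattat
Dpf3: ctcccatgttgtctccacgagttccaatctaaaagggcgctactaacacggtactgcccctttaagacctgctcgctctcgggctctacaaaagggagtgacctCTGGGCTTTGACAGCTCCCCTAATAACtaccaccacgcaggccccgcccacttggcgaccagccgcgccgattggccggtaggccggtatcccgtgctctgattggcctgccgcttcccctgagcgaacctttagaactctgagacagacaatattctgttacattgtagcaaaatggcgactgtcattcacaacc

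At the Dpf3 promoter the Satb1 KO summits lay 6 bp apart, at Rnf135 56 bp, at Gm14410 84 bp and at Gm30281 127 bp. None of the 4 windows held the CTCF core consensus or the short core of 7 bases that it contains (AGAGGGC with its variants AGATGGC, also AGGGGGC, then finally AGGTGGC, both strands searched). Across all 44 promoter windows under a gained region, the CTCF core consensus was found in 0, which allows a share of up to 8.03% (95% Wilson interval). It was found in 0.471% of 31396 autosomal promoter windows and in 1.59% of the 6919 that overlap a CTCF region of all 3 lists. The short core was found in 20.5% of the 44 windows (11.2 to 34.5%), against 39.5% under CTCF regions of all 3 lists and 27.8% of all promoter windows. These matches describe letters in a window of 300 bases, and the rest of each region was not searched.

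The values that chose the regions are described here without a test. The fold is the authors' enrichment over local background at a peak's summit, and −log10 q is their significance score, where a higher value is stronger. Among the 1281 regions the median fold was 5.77 in Satb1 KO replicate 1 and 3.61 in replicate 2, and the median −log10 q was 9.63 and 4.03. The fold spanned 1.57 to 33.9 in replicate 1 and 1.39 to 16.1 in replicate 2. CTCF regions of all 3 lists had a median fold of 15.6 and 4.57 in the same 2 libraries. Gained regions ranked lower in the 2 Satb1 KO lists than regions of all 3 lists did. Their median percentile was 46.8 in replicate 1, near the middle of that list, and 25.5 in replicate 2. Regions of all 3 lists sat at 83.4 and 59.7. The median summit pile-up was 20 reads over a local background of 2.31 in replicate 1, and 18 reads over 3.95 in replicate 2. Only 379 of the 1281 (29.6%) reached a −log10 q of 5 in both libraries, against 74.6% of the regions of all 3 lists.

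At the limit of the rule, 18 regions tied at a −log10 q of 1.32 in Satb1 KO replicate 2, with 2.59 to 36.5 in replicate 1. Among them, 5 lay in or near Prune2, Mecr, Mlycd, Ces1a and Spata13. Just outside, 8 regions tied at a WT −log10 q of 1.47, with Satb1 KO values of 2.79 to 63.6 in replicate 1 and 1.37 to 9.35 in replicate 2. Of these, 5 lay in or near Ndufb8, Gpr146, Bnip2, Olfr288 and AY074887. On both sides of the limit, 1 weak call in 1 library decided membership.

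**Figure D1:**
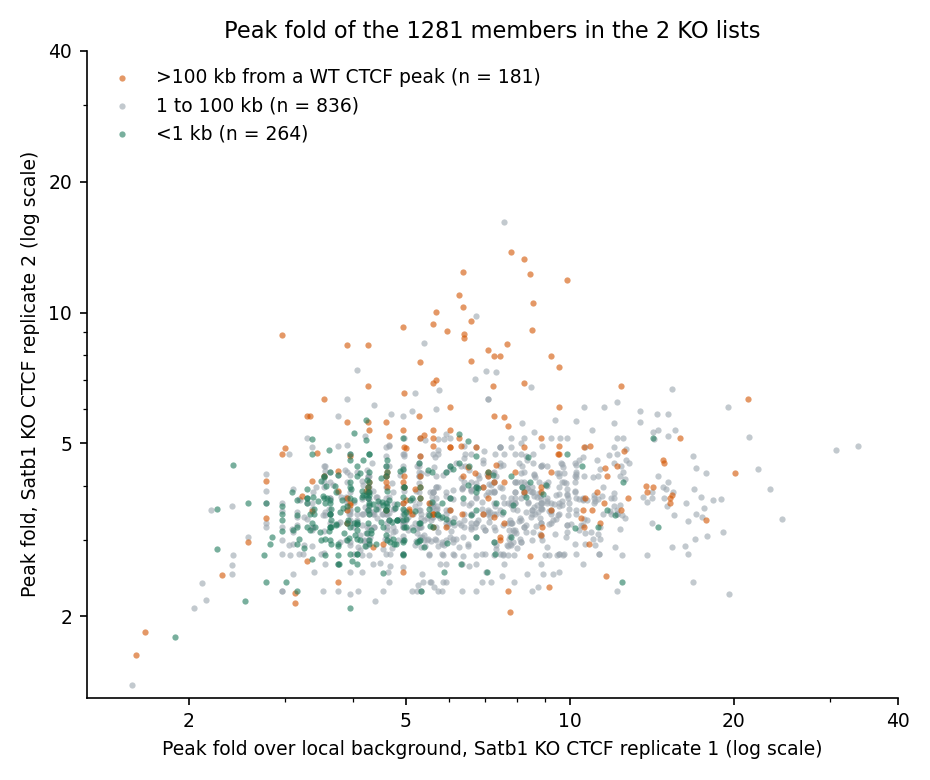
Each point is 1 of the 1281 regions, with the authors' peak fold in Satb1 KO CTCF replicate 1 on the x axis and in replicate 2 on the y axis, both on log scales, coloured by distance to the nearest WT CTCF peak. The points above a fold of 8 in replicate 2 are mostly regions over 100 kb from any WT CTCF peak, while regions within 1 kb of a WT peak gather at a fold near 4.29 in replicate 1 and 3.51 in replicate 2, their medians.

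How far a gained region lay from CTCF in WT cells divided the set. The nearest WT CTCF peak was a median 7948 bp from the summit. It lay within 1 kb for 264 regions (20.6%), between 1 and 100 kb for 836, and over 100 kb away for 181 (14.1%). Among the 211 gains with a cohesin gain, 3.79% lay within 1 kb of a WT peak. This is a description without a test, since the rule used the WT list, and gains with cohesin gain were also wider, at a median of 837 bp against 493 bp for those without. The regions within 1 kb had the lowest fold in replicate 1, a median of 4.29 against 6.60 for those at 1 to 100 kb and 6.27 for those over 100 kb away. Without the regions that have a WT peak within 1 kb of their edges, 960 remained.

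The 181 regions far from WT CTCF were narrower than the other gained regions, and their Satb1 KO summits lay closer together. Their median width was 360 bp, against 497.5 bp for the regions within 1 kb of a WT peak. Their Satb1 KO summits lay a median 29 bp apart, against 123.5 bp. They fell on the same base in 10.5% of the 181 and within 100 bp in 70.2%. A narrower region leaves less room between its summits, which was not adjusted for. The summits were within 10 bp of each other in 60 of the 181 (33.1%), and in 18 of the 264 (6.82%) near a WT peak. Only 24.3% of the far regions had their summit in the body of a protein-coding gene, against 50.9% of all 1281. As a comparison, 687 CTCF regions of all 3 lists had no other WT CTCF region within 100 kb, and these had a median width of 591 bp and a median summit distance of 52 bp. Close summits were thus also seen in isolated regions that WT cells share, which were wider.

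**Figure D2:**
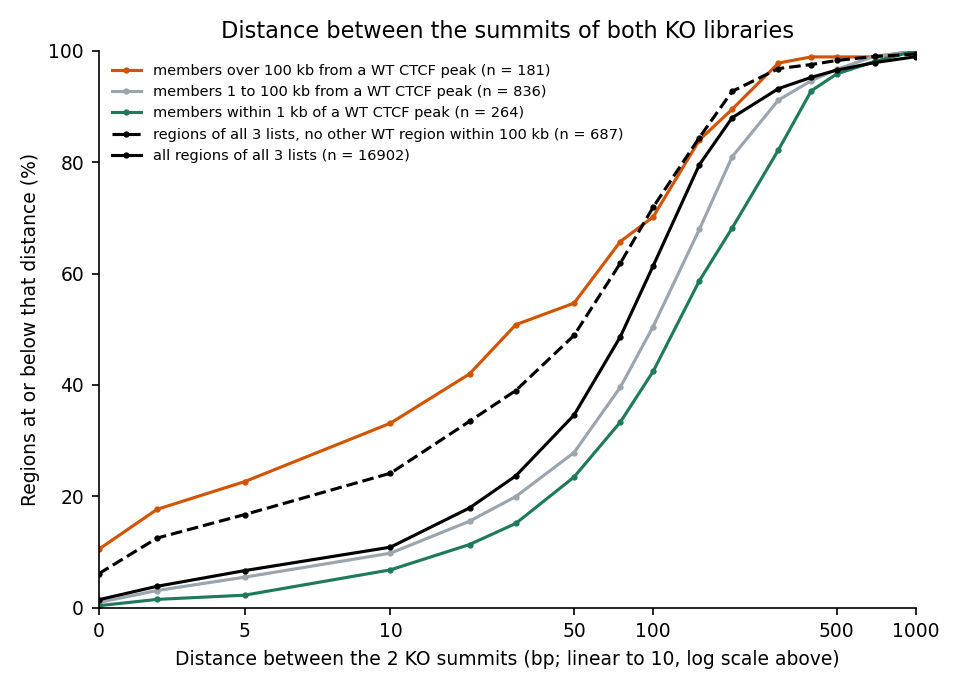
Curves give the percentage of regions whose 2 Satb1 KO CTCF summits lie at or below the distance on the x axis (bp, linear to 10 and log scale above), for gained regions by distance to WT CTCF and for regions of all 3 lists. The curve of the 181 far regions lies above the others up to 75 bp, with 33.1% at 10 bp, against 24.2% for isolated regions of all 3 lists and 10.9% for all of these.

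Within the far group, 55 regions were at most 400 bp wide and had Satb1 KO summits within 10 bp of each other, a subset set apart after these values were seen. Their median −log10 q was 9.16 in replicate 1 and 10.1 in replicate 2, while the whole lists had medians of 10.9 and 6.83. SMC1A was absent from all 4 lists at 43 of the 55 (78.2%), against 65 of the other 126 far regions (51.6%). The 55 were chosen to be narrow, with a median width of 342 bp against 427.5 bp for the other 126. A narrower region has less room to overlap an SMC1A peak, which was not adjusted for. Several of the 12 strongest gained regions by the lower of their 2 −log10 q values met these limits, and others did not. Those that did include 2 regions of low fold on chromosome 9, described below.

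An intergenic region at chr6:11415312-11415663 had a fold of 9.90 and 11.9 in Satb1 KO replicates 1 and 2, from 33 and 63 reads at the summit, and both summits fell on the same base. The nearest WT CTCF peak was 491731 bp away and no SMC1A list held a peak there. A region at chr1:42142241-42142575 was alike, with a fold of 8.44 and 12.2, summits 1 bp apart, and no SMC1A in any list. Neither has a protein-coding gene within 100 kb. At chr14:83298598-83298871, 2900200 bp from a WT CTCF peak, the fold was 8.58 and 10.5, and SMC1A was held by Satb1 KO replicate 1 alone. Regions at chr10:114171835-114172192 (fold 9.58 and 7.48) and chr2:78622804-78623088 (fold 8.52 and 9.12) also lay over 100 kb from any protein-coding gene, without SMC1A.

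Some narrow regions of high fold fell in or near genes. In Zbtb20, which encodes a zinc-finger repressor, the region at chr16:42982587-42982909 had a fold of 7.81 and 13.8. At 52674 bp from Ppp3ca, which encodes a catalytic subunit of calcineurin, the region at chr3:136616887-136617209 had the highest fold of the set in replicate 2, 16.1, with 7.57 in replicate 1, and it held no SMC1A. In Cntnap2, a neurexin-family adhesion gene known mainly from neurons, the region at chr6:46833908-46834280 had a fold of 7.24 and 6.78 from 65 and 105 reads. SMC1A was called there in replicate 1 of both genotypes, with a fold of 3.66 in Satb1 KO and 3.85 in WT.

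The 2 regions with the highest −log10 q of all stood apart from the rest. They lie on chromosome 9 at chr9:3009304-3009645 and chr9:3012757-3013080, far from any protein-coding gene. Their −log10 q was 64.2 and 181 for one and 59.8 and 118 for the other, but their fold was only 1.66 and 1.84, and 1.60 and 1.63. The local backgrounds were 826 and 1489 reads at one and 913 and 1660 at the other, against a median of 2.31 and 3.95 over the set. SMC1A was called at both in all 4 lists, with folds of 1.53 to 1.92. Only 4 of the 1281 regions had a fold under 2 in either Satb1 KO library, and these are among them.

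In each library, SMC1A was called at a minority of the gained regions. The rule itself lowered the Satb1 KO shares, because it removed the 211 gains with a cohesin gain. In Satb1 KO cells 36.5% (replicate 1) and 17.3% (replicate 2) of the 1281 regions overlapped an SMC1A peak, against 15.1% and 17.2% in WT cells. CTCF regions of all 3 lists, from which no such regions were removed, were more often shared with cohesin. Their shares were 84.1% and 73.1% in Satb1 KO and 70.9% and 72.8% in WT. Of the 1281 regions, 702 (54.8%) had no SMC1A peak in any list, 311 had one in 1 list, 82 in 2, 118 in 3 and 68 (5.31%) in all 4. Among regions of all 3 CTCF lists, 58.2% had SMC1A in all 4.

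Because the rule removed regions with a cohesin gain, the difference between genotypes was tested over all 1492 CTCF gains, before that step. SMC1A peaks overlapped 45.4% and 29.0% of them in Satb1 KO and 13.1% and 15.1% in WT, which averages 37.2% ± 11.6 in Satb1 KO and 14.1% ± 1.37 in WT (SD, n = 2 each). The Satb1 KO libraries were both higher, by 23.1 percentage points on average, with p = 0.333 in an exact two-sided permutation test, the smallest that 2 libraries against 2 can give. The difference was 32.2 points in batch 1 and 13.9 in batch 2. For the 1281 regions alone it was 21.4 points in batch 1 and 0.078 in batch 2. Satb1 KO SMC1A replicate 1 also has the longest of the 4 lists. With all SMC1A lists cut to their 19466 strongest peaks, the shares at the 1281 regions were 22.1% and 16.6% in Satb1 KO, against 15.1% and 16.2% in WT. At all 1492 CTCF gains they were then 30.8% and 28.0% in Satb1 KO, against 13.1% and 14.1% in WT.

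**Figure D3:**
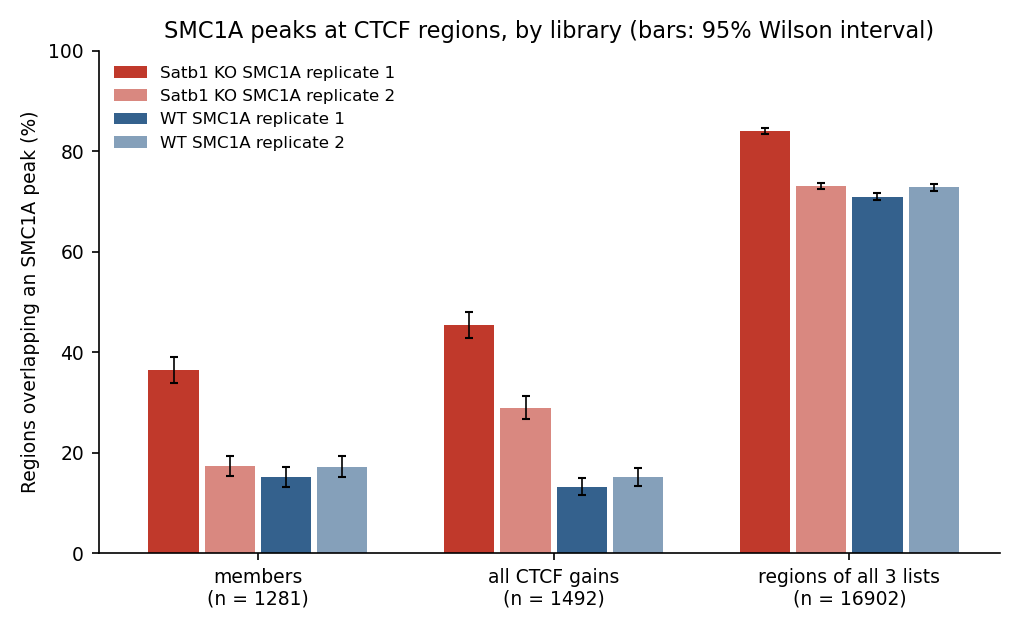
Bars give the percentage of regions that overlap an SMC1A peak in each library, with Satb1 KO in red and WT in blue, and error bars are 95% Wilson intervals for counting error only. At the 1281 gained regions Satb1 KO replicate 1 reaches 36.5% and the other 3 libraries lie between 15.1% and 17.3%, while regions of all 3 CTCF lists lie between 70.9% and 84.1%.

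CTCF peaks were taller and wider where cohesin was also called. The 702 regions with no SMC1A had a median fold of 4.95 and 3.59 in the 2 Satb1 KO CTCF libraries and a median width of 427.5 bp. The 255 with SMC1A in both genotypes had a median fold of 8.63 and 3.74 and a width of 674 bp. SMC1A was called in Satb1 KO lists only at 269 regions and in WT lists only at 55. In all, 310 regions (24.2%) had a cohesin peak in a WT library although the WT CTCF list had no peak there. In Satb1 KO replicate 1, SMC1A and CTCF summits lay a median 64 bp apart at the 467 gained regions where both were called. The required overlap itself keeps this distance short, and it was 43 bp at CTCF regions of all 3 lists.

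Near Snx18, a sorting nexin gene, the region at chr13:113579718-113580738 had the highest CTCF fold in Satb1 KO replicate 1 of the whole set, 33.9, with 4.93 in replicate 2. SMC1A there had a fold of 13.6 and 12.4 in Satb1 KO, against 5.83 and 4.58 in WT. In Entpd7, which encodes a nucleotide-hydrolysing enzyme, the CTCF fold was 15.2 and 5.86, and the SMC1A fold was 9.39 and 5.93 in Satb1 KO, against 6.65 and 3.82 in WT. At both, cohesin was called in WT cells where CTCF was not, and folds from separate lists are not compared as amounts. In Galnt16, a glycosyltransferase gene, and near Scpep1, a serine carboxypeptidase gene, SMC1A was called with folds of 7.46 or more in all 4 libraries, while CTCF reached 7.10 and 6.31 at Galnt16 and 5.89 and 5.11 at Scpep1. These 2 regions were narrow, at 202 and 208 bp.

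Gained regions lay mostly away from gene boundaries. A summit fell within 1 kb of a protein-coding gene boundary, meaning its start or its end, in 145 of 1281 regions, 11.3% (95% interval 9.70 to 13.2%), which is close to the 12.3% of gains with cohesin gain (8.55 to 17.4%). Among CTCF regions of all 3 lists the share was 33.9% (33.2 to 34.7%). Counted at the transcription starts of the RefSeq promoter table, an alternative added after the data were seen, the shares were 8.12% for the gained regions, 10.9% for gains with cohesin gain and 30.8% for regions of all 3 lists. The intervals are for counting only. Within the set, the share at a gene boundary was 24.0% less than 0.5 kb from a WT CTCF peak and 28.1% at 0.5 to 1 kb. It was 12.3% at 1 to 2 kb, 7.53% at 2 to 10 kb, 8.21% at 10 to 100 kb and 1.66% over 100 kb away. In gene bodies the shares were 50.9% for the gained regions and 48.9% for regions of all 3 lists.

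**Figure D4:**
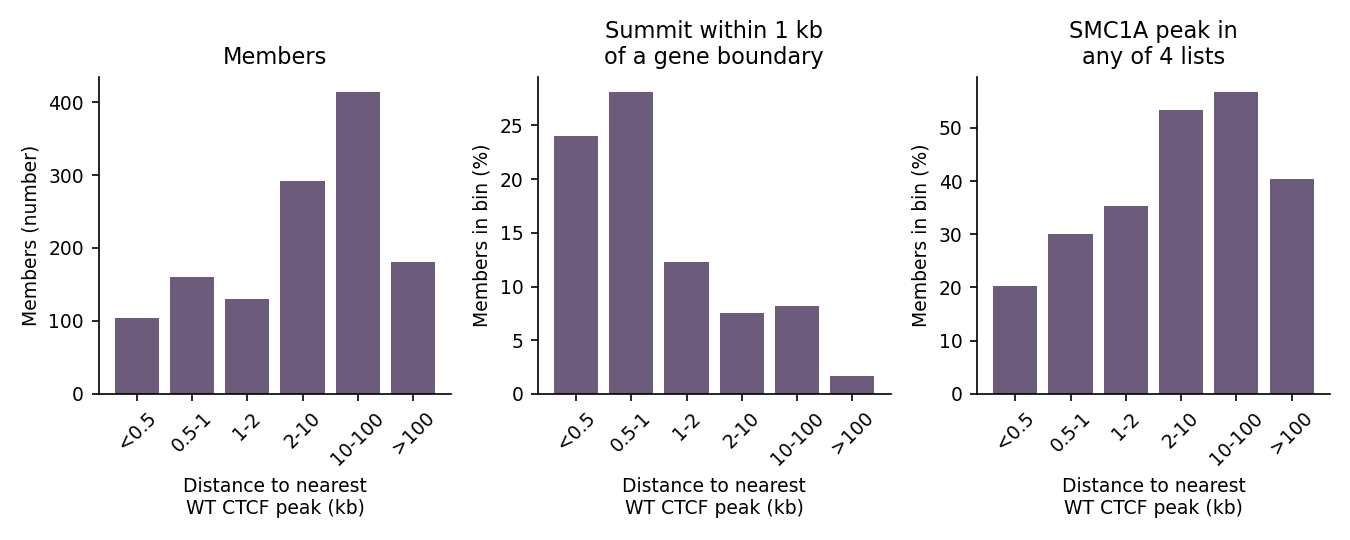
The 3 panels divide the 1281 regions by distance to the nearest WT CTCF peak (kb) and give the number of regions, the percentage with a summit within 1 kb of a protein-coding gene boundary, and the percentage with an SMC1A peak in any of the 4 lists. The share at gene boundaries is 24.0% in the nearest bin, 28.1% at 0.5 to 1 kb and 1.66% in the farthest, while SMC1A is highest at 10 to 100 kb, at 56.8%, and lowest within 0.5 kb, at 20.2%.

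At gene boundaries, the strongest by the lower −log10 q was the region at Tbc1d30, which encodes a Rab GTPase-activating protein. Its CTCF fold was 9.40 and 5.66 in Satb1 KO. Hsd11b1 encodes the enzyme that regenerates active glucocorticoid, a hormone to which DP thymocytes are sensitive. Its region at chr1:193263795-193264607 had its summit 11 bp from a boundary of the gene and a CTCF fold of 9.70 and 4.48. The SMC1A folds there were 3.40 and 4.52 in Satb1 KO, against 7.73 and 5.69 in WT. At Ppp2r5e, a regulatory subunit of protein phosphatase 2A, the CTCF fold was 17.8 and 4.27, with SMC1A in all 4 lists. Clec10a, a lectin gene of macrophages, had a region 609 bp from its boundary with a fold of 7.29 and 4.74 and no SMC1A.

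Genes of T cell development held these regions at shares whose intervals include that of all regions. Within 20 kb of 30 T-lineage transcription factor genes there were 97 CTCF regions of both Satb1 KO lists. Of these, 5 (5.15%, 95% interval 2.22 to 11.5%) were gained without a cohesin gain. The share among all regions of both Satb1 KO lists was 6.96%. The strongest of the 5 lay 5869 bp from Ikzf1, which encodes the lymphoid zinc-finger factor Ikaros, at chr11:11678599-11679623. CTCF there had a fold of 21.4 and 5.18 in Satb1 KO, and SMC1A had a fold of 16.4 and 10.8 in Satb1 KO, against 6.78 in WT replicate 1 and no peak in WT replicate 2. Hivep3, a zinc-finger gene, held 2 of the 5, the stronger with a CTCF fold of 14.3 and 5.13. In Runx1, a transcription factor needed at several stages of T cell development, the region that covers the Gm30281 promoter had a fold of 12.1 and 3.85. At these 3 regions SMC1A was called in 3 lists, both of Satb1 KO and 1 of WT. The remaining one was near Ikzf3, which encodes Aiolos.

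Among T cell receptor, coreceptor and recombination genes, 1 of 65 regions of both Satb1 KO lists was gained without a cohesin gain (1.54%, 0.272 to 8.21%). It lay 3320 bp from Dntt, which encodes the terminal transferase that adds bases during receptor gene rearrangement, with a fold of 7.07 and 2.53. Cd4, Cd8a, Rag1 and Rag2 had 0. The cytokine and effector loci held 1 of 23, in Stat4 (fold 4.95 and 2.60). The lists for regulatory T cells, apoptosis and survival, and imprinted clusters held 0 of 18, 0 of 33 and 0 of 21. Counts as low as these have wide intervals, up to 17.6% for 0 of 18.

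Genes for cohesin, CTCF and nuclear architecture held 4 of 47 (8.51%), 1 each within 20 kb of Ctcf itself, Top2b (topoisomerase II beta), Lmna (lamins A and C) and Pds5a (a cohesin regulator). The regions in Top2b, near Lmna and in Acd, a telomere protein gene close to Ctcf, had folds of 3.30 to 4.50 in Satb1 KO replicate 1 and 3.30 to 3.43 in replicate 2, below the set's median in both, and each lay near a WT CTCF peak, at 666, 1011 and 362 bp. Neuronal adhesion genes held 2 of 22, in Cntnap2 and Kcnip4, and housekeeping genes 1 of 27, near Rpl13a. Markers of other cells that a sorted thymus sample could hold gave 0 of 17 for B cells, 1 of 9 for myeloid cells (Cebpb), 0 of 8 for erythroid cells and 1 of 14 for fibroblasts and endothelium (Pdgfra). Thymic epithelium markers gave 3 of 17, all within 20 kb of Prss16, a thymus-specific serine protease gene next to a histone gene cluster. One of them had its summit in Prss16, another lay 12109 bp from it, and the last was nearest to the histone gene H2ac12. Every one of the 14 intervals included 6.96%.

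**Figure D5:**
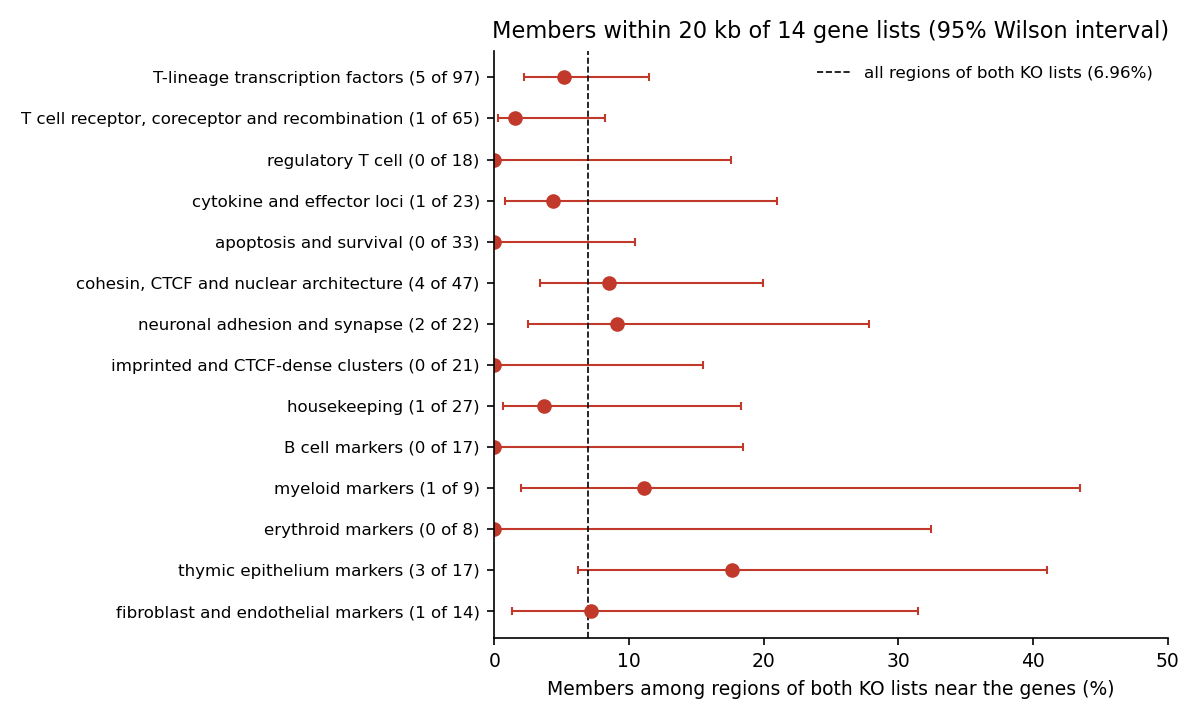
Points give the percentage of CTCF regions of both Satb1 KO lists within 20 kb of each gene list that were gained without cohesin gain, with 95% Wilson intervals, and the dashed line marks 6.96%, the share over all such regions. The points run from 0 to 17.6%, and every interval includes the dashed line.

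The antigen receptor loci were looked up after a window there was seen. The RefSeq locus Tcra (chr14:52427967-54224198), rearranged at the DP stage, held 5 of the 1281 regions among 53 CTCF regions of both Satb1 KO lists. A further 2 of the 53 were gains with cohesin gain. By the lower −log10 q of the 2 libraries, the strongest of the 5, at chr14:53581650-53582229, had a fold of 9.69 and 3.61, with SMC1A in Satb1 KO replicate 1. The locus held 217 and 55 CTCF peaks in Satb1 KO, against 117 in WT, and 66 and 25 SMC1A peaks in Satb1 KO, against 21 and 15 in WT. The share at Tcra was 9.43% (95% interval 4.10 to 20.3%), against 6.96% over all such regions. Igh, the immunoglobulin heavy chain locus on chromosome 12, held 4 among 17 (9.56 to 47.3%) and Igk 2 among 4 (15.0 to 85.0%). Tcrb held 0 of 14 and Tcrg 0 of 3, which allow up to 21.5% and 56.1%. These loci were picked with their counts in view, so the intervals are no test. V segments of these loci include closely similar copies, so the placement of reads among them may be uncertain, which was not tested.

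Gained regions were spread over all 19 autosomes. The share of merged CTCF regions that were gained ran from 1.54% on chromosome 15 to 2.73% on chromosome 1. The median distance to the nearest other gained region was 403110 bp, and 62 (4.84%) had another within 10 kb. Of the 1 Mb windows that held any, 570 held 1, 214 held 2 and 74 held 3, and the others held 4 to 7. The richest, chr11:49000001-50000000, held 7, of which 3 lay in Cnot6, a subunit of the mRNA deadenylase complex, 2 in Mgat1, a glycosyltransferase gene, and 1 each in Flt4 and Rasgef1c. Windows at chr13:22000001-23000000, with Prss16 and histone genes, and chr9:58000001-59000000, with Nptn and Neo1, held 5 each.

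Cohesin density around these regions was compared over all autosomal 1 Mb windows with limma on log2 peak density, scaled to each SMC1A library's total. Of 1239 windows tested, 63 passed an adjusted p under 0.05 (5.08%), 46 higher and 17 lower in Satb1 KO. The rule had left out CTCF gains with a cohesin gain by these same SMC1A lists. How many gained regions a window holds is therefore not independent of this comparison, and calls by that number are a description. None of the 6 windows richest in the gained regions passed, and the lowest unadjusted p among them was 0.0591. Windows with 4 gained regions were tied, and the tie-break left some of them out. Of those, chr16:10000001-11000000 had the lowest unadjusted p, 0.0107 (limma adjusted p = 0.118). The window on chromosome 11 with 7 held 31 and 19 SMC1A peaks in Satb1 KO, against 22 and 17 in WT, a log2 difference of 0.07 ± 0.18 (SE, limma adjusted p = 0.909). At chr13:22000001-23000000 there were 13 and 8 peaks in Satb1 KO, against 5 and 7 in WT (log2 difference 0.49 ± 0.27, limma adjusted p = 0.319). Among the 183 windows with 2 gained regions, 15 were higher and 2 lower (9.29%). Of the 83 with 3 or more, 2 were higher and 2 lower (4.82%), of the 397 with 1, 15 were higher and 6 lower (5.29%), and of the 576 with none, 14 were higher and 7 lower (3.65%). The share called did not rise steadily with the number of gained regions. Called windows included chr14:53000001-54000000, within Tcra, with 50 and 21 SMC1A peaks in Satb1 KO, against 17 and 12 in WT. Its log2 difference was 0.91 ± 0.18 (limma adjusted p = 4.13e-05). At chr12:115000001-116000000, within Igh, there were 15 and 5 peaks in Satb1 KO, against 1 and 0 in WT (log2 difference 3.17 ± 0.71, limma adjusted p = 6.43e-04). With SMC1A lists of equal length limma called 0 of 1157 windows, with 162 at an unadjusted p under 0.05.

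Which regions belonged to the set depended on list length and strength. With the CTCF lists cut to equal length 1392 regions met the rule, but they included 383 of the 1281 (29.9%). With a −log10 q of 5 or more required in every list 850 met it, including 360 (28.1%). Most of the 1281 regions were therefore not found again under these settings.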

How the data were processed

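Of the 18 CUT&RUN samples, 7 had a peak list used here: 4 from Satb1 KO cells and 3 from WT cells, grouped by the genotype and antibody in the labels. The others were not analysed here. Trimmomatic, Bowtie2, SAMtools, deepTools, MACS2 and mm10 are named in the submitters' processing notes; the caller's settings and control are not given in the sources. The authors called peaks in each library separately, and each deposited peak carries a fold enrichment (a ratio) over local background. Significance was deposited by the authors as −log10 p and −log10 q, with q of 0.0498 or less.

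Peaks on chromosomes 1 to 19 were merged at 1 bp of overlap. Reads at a summit and in its local background were recovered by solving the Poisson model for each deposited fold and p. This gave whole read numbers (−log10 p met within 0.001) for 1281 and 1280 of the 1281 regions in the 2 Satb1 KO libraries. The lists give no total read number. Wilson intervals (95%) cover counting error only, and regions are not replicates of a condition. Shares of regions with SMC1A were compared between libraries with an exact two-sided permutation test. For each 1 Mb window averaging at least 5 SMC1A peaks, 0.5 was added to each peak number, which was then scaled to 1000000 peaks in all and put on a log2 scale. limma was fitted to these densities with its trend option, and p-values were adjusted by Benjamini-Hochberg over all windows. Gene positions and promoter sequences are from RefSeq (GRCm38.p6, which mm10 represents); exonic and intronic positions are not given, since the gene table holds no exons. All 211 genes of the 14 lists were found, 204 of them on autosomes.

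Regions, lists and rules were chosen with earlier results of these data known. Named regions are the 12 strongest by the lower −log10 q, 10 by the lower fold, up to 3 per gene list, 8 at gene boundaries, 8 with SMC1A in all 4 lists, the 6 richest windows (ties broken by summed −log10 q, a step added later), 5 on each side of the limit and up to 6 at promoters; the text gives a part of each. A region takes the gene that holds its summit, or else the nearest boundary within 100 kb. The receptor loci and the narrow subset were chosen after their values were seen.

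Replicate numbers equal the batch in the labels, so they pair the libraries. A check over 1239 windows found that SMC1A libraries of 1 batch deviated from their genotype means with a correlation of 0.011. Alternatives covered peak strength (−log10 q of at least 5), equal list lengths, an overlap of 0.5 of the shorter peak, summits within 200 bp, other cohesin exclusions, gene distances and window settings, each library left out, and the replicate block. Scripts were tested on simulated data before use. Software was R 4.3.3 with limma 3.58.1, and Python 3.11.15 with pandas 2.3.3, numpy 2.4.6, scipy 1.17.1 and matplotlib 3.10.9.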

Additional observations from a re-analysis of the deposited data

How the results depend on the processing

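The count of gained regions without cohesin gain stayed within 1.5 times of 1281 in the settings run for overlap, summit distance, list length, fold, cohesin exclusion and distance to WT peaks (960 to 1492), but fell to 850 with a −log10 q of 5 or more, and leaving out 1 CTCF or SMC1A library at a time gave 1047 to 24164, the highest without Satb1 KO CTCF replicate 2 and 3687 without replicate 1. The Satb1 KO excess of SMC1A at CTCF gains kept its direction in every setting run, and was 7.63 to 31.3 percentage points with 1 library left out. With the replicate block it was 23.1 points (exact sign permutation p = 0.5, the smallest possible with 2 pairs). The share at a gene boundary was 18.3% with summits within 200 bp, 31.3% at 5 kb and 8.12% at promoter-table starts, and 11.4% to 11.8% with 1 Satb1 KO CTCF library left out. The 63 window calls became 0 with lists of equal length, 15 with a −log10 q of 5 or more, 23 with a mean of 2 or more peaks, 3 with each library median set to 0, 65 with the replicate block, and 6 to 21 with 1 library left out, where a lone library is assumed to vary like the others; the cause was not tested. How far depth limits absence calls was not tested.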
